A study of Homo sapiens with 9 samples.

Results

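Heat shock proteins and their partners were measured in MDA-MB-231 cells carrying a control hairpin or 1 of 2 hairpins against Coco (DAND5), a secreted antagonist of TGF-beta family ligands. The genes were chosen by symbol: HSPA (without HSPA5 and HSPA13), HSPB, DNAJA, DNAJB, DNAJC, CCT and BAG followed by a number, and HSP90AA1, HSP90AB1, HSPD1, HSPE1, HSPH1, TCP1, STIP1, AHSA1, CACYBP, HSF1 and HSF2. A probe set, the group of short probes that reads 1 transcript on the array, was a member when its only platform symbol fitted. This gave 109 probe sets for 66 genes, of 22215 probe sets that are not controls. Of the 88 RefSeq protein-coding genes whose symbol fits, HSPA1A, HSPA1B, HSPA8 and TCP1 were read only by probe sets with several symbols, and 18 had no probe set under that symbol and are not analysed here, HSF2 and AHSA1 among them. The module is cytosolic by name, but its rule also took in mitochondrial proteins (HSPA9, HSPD1, HSPE1, DNAJA3, DNAJC15) and endoplasmic reticulum proteins (DNAJB9, DNAJC1, DNAJC3, DNAJC10).

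MDA-MB-231 is a human triple-negative breast cancer line with mesenchymal features. All 3 lines were made with a lentiviral pLKO vector that stayed in the cells, and all were grown in DMEM with 10% fetal bovine serum. The scramble line carried a control hairpin, and the shco2 and shco4 lines carried Coco hairpins 2 and 4. Each line was read on 3 Affymetrix 3' expression arrays, labelled as biological replicates, from 200 ng of total RNA. Whether a line was 1 clone or a pool of transduced cells, and whether its replicates were separate transductions, is not given in the sources used here, so p-values measure the spread between these samples only. No probe set carried the DAND5 symbol, so the knockdown itself was not read.

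Chaperones hold unfolded proteins and let them fold. HSP70 proteins bind exposed stretches under the control of J proteins, which deliver clients and start the ATP cycle, and of exchange factors such as HSP110 and BAG proteins, which release them. STIP1 passes clients from HSP70 to HSP90, which matures kinases and steroid receptors. The ring-shaped chaperonin TRiC folds actin, tubulin and other cytosolic proteins, and HSPD1 with HSPE1 does the same work inside mitochondria. Under heat or proteotoxic stress the transcription factor HSF1 binds heat shock elements, inverted repeats of GAA units, in front of many of these genes.

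Heat shock elements are printed here because they are the DNA feature that part of the module shares and that the choice by symbol did not use. Promoter windows from 250 bases before to 50 bases after the start were taken from RefSeq (GRCh38.p14), and 58 of the 66 genes had one that was used here. A run of 3 GAA units was searched as TTCNNGAANNTTC and its reverse complement GAANNTTCNNGAA, which together cover both strands. Of the 58 genes, 6 held such a run in a window (10.3%), against 166 of 27305 genes with a window in all (0.608%). A run of only 2 units, TTCNNGAA or GAANNTTC, both of which read the same on either strand and lie within the longer motif, was in 23 of the 58 genes (39.7%) and in 16.2% of all genes. The 6 genes were DNAJA1, DNAJB6, HSP90AA1, HSP90AB1, HSPA6 and HSPD1. The 250 bases before the start of HSP90AA1 (chr14:102087045-102087294, minus strand) and of HSPA6 (chr1:161524290-161524539, plus strand) follow 5' to 3', with the 3-unit run in capitals.
HSP90AA1: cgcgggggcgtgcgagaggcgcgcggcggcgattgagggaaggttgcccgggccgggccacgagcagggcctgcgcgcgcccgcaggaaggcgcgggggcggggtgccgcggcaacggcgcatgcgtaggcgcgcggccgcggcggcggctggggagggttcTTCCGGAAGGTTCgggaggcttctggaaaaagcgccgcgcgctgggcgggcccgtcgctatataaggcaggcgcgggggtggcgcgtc
HSPA6: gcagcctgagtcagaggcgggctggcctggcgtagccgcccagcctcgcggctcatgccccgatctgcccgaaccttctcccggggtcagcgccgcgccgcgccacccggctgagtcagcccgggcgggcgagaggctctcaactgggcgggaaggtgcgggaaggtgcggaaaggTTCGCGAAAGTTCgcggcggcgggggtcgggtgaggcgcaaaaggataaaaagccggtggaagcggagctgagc
The runs of the other 4 genes follow with their flanks, again in capitals: DNAJA1 at chr9:33025268-33025297, DNAJB6 at chr7:157336865-157336894, and HSP90AB1 at both chr6:44247770-44247799 and chr6:44247823-44247852, all on the plus strand. HSPD1 at chr2:197500061-197500090 (minus strand) held 2 overlapping runs. HSP90AA1, HSP90AB1 and HSPD1 each had at least 1 further start whose window held no run. The start meant here is that of the window with the run, and the runs of these genes lie downstream of their other starts. The DNAJA1 run begins 3 bases after its start and not before it.
DNAJA1: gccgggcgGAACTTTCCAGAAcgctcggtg
DNAJB6: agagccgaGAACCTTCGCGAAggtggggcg
HSP90AB1, farther from the start: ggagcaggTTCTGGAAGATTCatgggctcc
HSP90AB1, nearer the start: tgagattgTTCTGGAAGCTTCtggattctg
HSPD1: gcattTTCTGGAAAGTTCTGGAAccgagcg
A match describes these letters only, and the arrays hold no measure of HSF1 binding. The 6 genes did not move alike in either line, as the values below give. HSP90AA1 (3 of 4 probe sets) and DNAJA1 rose with hairpin 2, and HSPD1 fell with hairpin 4. At its single-symbol probe set DNAJB6 rose with hairpin 4, in a call that 8 of 9 arrays could end. Of the probe sets that name both DNAJB6 and TMEM135, 208811_s_at rose by 0.43 with hairpin 2 (limma adjusted p = 0.00655), a call that held without each array. The other, 208810_at, did not pass. HSP90AB1 and HSPA6 did not pass with either hairpin.

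Values are the deposited linear intensities, and differences are on the log2 scale after intensities under 16 were set to 16. A probe set rose or fell where limma, fitted over all 9 arrays and 22215 probe sets, gave a Benjamini-Hochberg adjusted p under 0.05. The 3 comparisons share arrays: both hairpins are set against the same scramble arrays, and the direct comparison of the hairpin lines reuses both. Array medians ranged from 122.4 to 129.3, and the ratio of 3' to 5' control probe sets from 1.07 to 1.14 for ACTB and from 0.868 to 0.958 for GAPDH. VIM, CD44, CAV1, EGFR and AXL, which mark this line, were well above the floor of 16 in all 3 lines, although 4 of the 5 fell with hairpin 2, and with hairpin 4 CD44 rose by 0.36 and AXL fell by 2.11. Of 5 genes chosen as low or absent in this line, PGR was at the floor on all 9 arrays, whereas CDH1, EPCAM, ESR1 and GATA3 were above it. In scramble cells EPCAM (541 to 610) and GATA3 (560 to 671) read well above the array medians. CDH1 (71.5 to 117) and ESR1 (23.2 to 28.6) read below them. CDH1 fell by 1.37 with hairpin 2, and with hairpin 4 EPCAM fell by 1.30 and ESR1 rose by 0.77 (limma adjusted p = 0.0439). Of 4 fibroblast markers, LUM rose by 3.34 with hairpin 4 (18.2 to 25 in scramble and 128 to 296 in shco4 cells), and DCN, COL3A1 and PDGFRB did not pass. The part of these markers in the chaperone results was not tested. In bulk RNA, fewer cells of a kind and less RNA per cell cannot be told apart.

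With hairpin 2 the chaperone genes moved mostly upward. Of the 109 probe sets, 33 rose and 9 fell, so 42 passed (38.5%), against 20.7% of all probe sets. Rises made up 30.3% of the members and 10.7% of all probe sets, and falls 8.26% and 9.95%. The median difference was 0.22 over the members and 0.00 over all probe sets. Chaperone genes are bright, and bright probe sets passed more often: among probe sets with a mean intensity of at least 100, 37.2% of 86 members rose and 9.3% fell, against 18.2% and 16.4% of all 11774 (34.6% in either direction). Counting 1 probe set a gene, 21 of 66 genes rose and 5 fell, against 13.3% and 11% of all 11963 genes. The count that rose was 22 without shco2 replicate 3, its lowest with 1 array left out.

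With hairpin 4 the same module showed no excess of calls. There 11 probe sets rose and 11 fell (20.2%), against 18.8% of all probe sets, 9.05% as rises and 9.75% as falls, and the median difference was 0.00. Among the brighter members 22.1% passed, against 30.9% of all bright probe sets. The 11 rises rested on few arrays: 2 of them were kept without scramble replicate 2, 3 without shco4 replicate 1, 3 without shco4 replicate 2 (with 3 new ones), 6 without scramble replicate 1 (with 1 new one), and 7 without scramble replicate 3 (with 1 new one) or without shco4 replicate 3. With the floor at 1 instead of 16, 1 of the 11 rises and 8 of the 11 falls were kept and 1 fall was new, that is 10% of the calls as rises instead of 50%. Same-numbered arrays of the scramble and shco4 lines deviated together. In a fit that blocks on the replicate number (the blocked fit below) 16 rose and 12 fell, and 22.1% of all probe sets passed.

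Set directly against shco2 cells, shco4 cells had 34 members lower and 8 higher, 38.5% of the 109 against 31% of all probe sets. Lower members were 31.2% of the module and 16.1% of all probe sets, and higher members 7.34% and 14.9%. The median difference was -0.13 over the members. Among bright probe sets 46.5% of members and 50.3% of all passed, with 37.2% of members and 26.9% of all lower in shco4, and 9.3% and 23.4% higher. In the blocked fit 38 members were lower and 13 higher, and 34.1% of all probe sets passed.

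**Figure D1:**
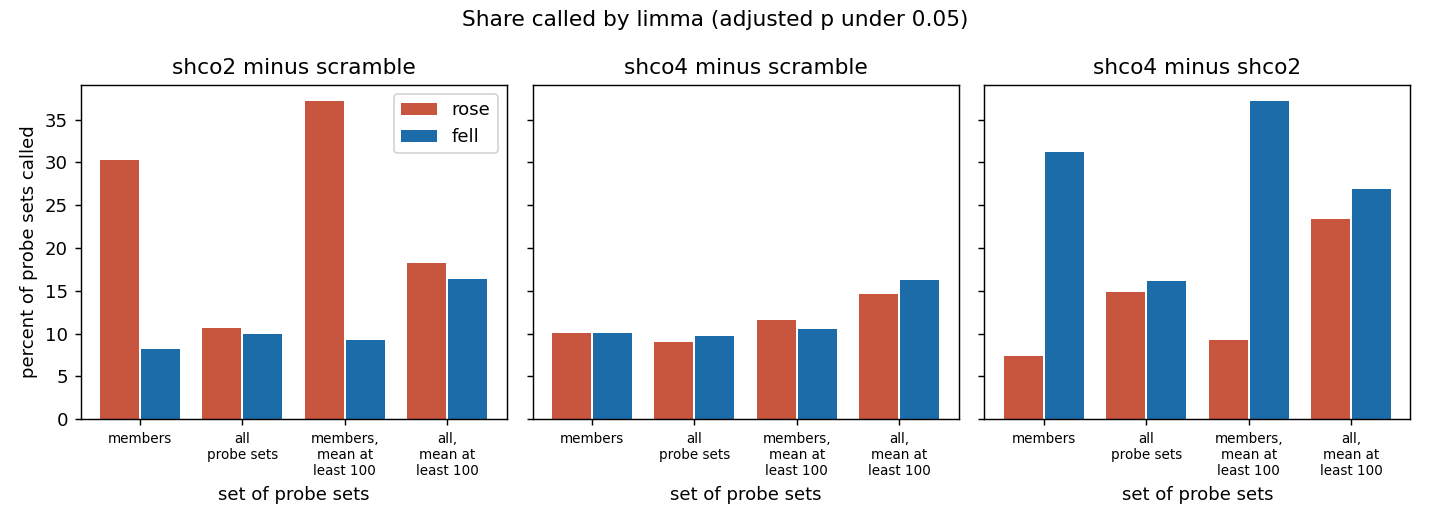
Percent of probe sets that rose or fell (vertical axis) in each comparison, for the chaperone members, all probe sets, and both restricted to a mean intensity of at least 100. With hairpin 2 the members' rises (30.3%) stand above those of all probe sets (10.7%). With hairpin 4 the members' rises and falls (10.1% each) are near those of all probe sets (9.05% and 9.75%). Among bright probe sets the members' rises and falls with hairpin 4 (11.6% and 10.5%) lie below those of all (14.6% and 16.3%).

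**Figure D2:**
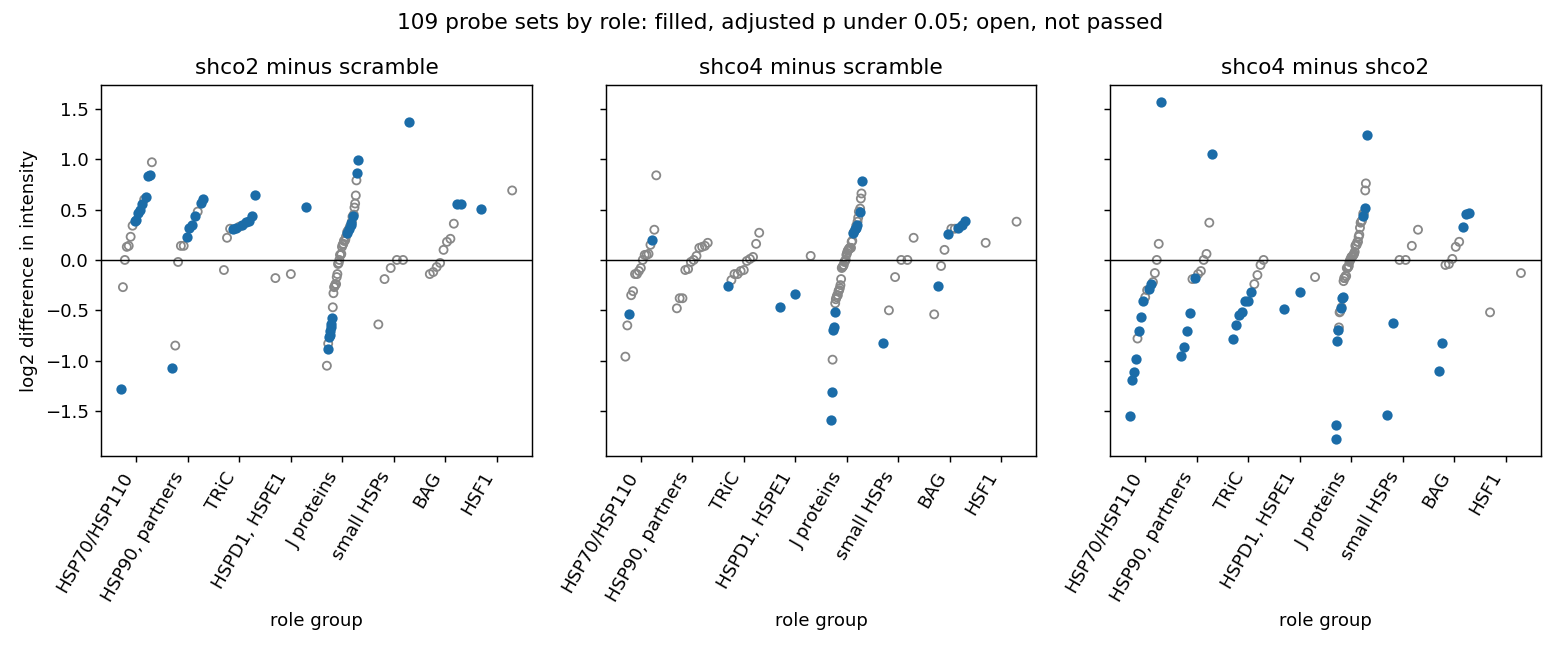
Log2 difference in intensity (vertical axis) of each of the 109 probe sets, arranged by role, in the 3 comparisons, with filled points for adjusted p under 0.05. Most filled points of the HSP70, HSP90 and TRiC groups lie above 0 with hairpin 2 and below 0 in shco4 minus shco2.

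The HSP70 and HSP110 group held 17 probe sets, of which 8 rose and 1 fell with hairpin 2, and 1 rose and 1 fell with hairpin 4. In shco4 against shco2 cells 9 were lower and 1 higher. Calls thus made up 52.9%, 11.8% and 58.8% of the group, against 20.7%, 18.8% and 31% of all probe sets. Among all probe sets with a mean of at least 100 the shares were 34.6%, 30.9% and 50.3%. HSPH1, the main cytosolic HSP110 and an exchange factor for HSP70, moved in opposite directions in the hairpin lines. Its probe set 206976_s_at read 2434, 2425 and 2208 in scramble cells, 3563, 3442 and 3426 in shco2 cells and 1497, 1557 and 1806 in shco4 cells. No array of one line overlapped another line. The difference was 0.56 ± 0.08 (SE, n = 3 arrays a line, limma adjusted p = 0.00357) with hairpin 2 and -0.54 ± 0.08 (adjusted p = 0.00469) with hairpin 4, a gap between the hairpin lines of 2.15-fold (adjusted p = 0.000164). The second probe set, 208744_x_at, rose by 0.84 with hairpin 2 and was at -0.35 with hairpin 4, which did not pass (adjusted p = 0.153).

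HSPA4L, a close relative of HSP110, read 645, 645 and 629 in scramble cells, 1156, 1069 and 1201 in shco2 cells and 531, 559 and 654 in shco4 cells. The shco2 arrays stood above all others, and the other lines overlapped. It rose by 0.83 ± 0.08 with hairpin 2 (limma adjusted p = 0.00128) and was at -0.14 with hairpin 4 (adjusted p = 0.309). HSPA9, the mitochondrial HSP70, read 3503, 3514 and 3363 in scramble, 5012, 4696 and 4638 in shco2 and 3647, 3577 and 3572 in shco4 cells at 200691_s_at. It rose by 0.47 ± 0.03 with hairpin 2 (limma adjusted p = 0.000464), and by 0.62 at 200692_s_at, while the dimmer 200690_at was at 0.14 and did not pass. HSPA14, a ribosome-bound HSP70, rose by 0.40 with hairpin 2 (adjusted p = 0.0401 by limma). That call could be ended by leaving out 7 of the 9 arrays (0.114 without shco2 replicate 1) and did not pass in the blocked fit (0.0531). HSPA14 was lower by 0.71 in shco4 than in shco2 cells.

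HSPA8, the constitutive HSP70, was read by 3 probe sets that also carry snoRNA symbols, and none passed in any comparison as fitted. Its differences with hairpin 2 were 0.11, 0.00 and 0.15, and with hairpin 4 between -0.06 and 0.02. In the blocked fit 221891_x_at was lower by 0.21 in shco4 than in shco2 cells (0.0178). After quantile normalization 208687_x_at and 221891_x_at rose with hairpin 2 by 0.21 and 0.27 (adjusted p = 0.0446 and 0.0101) and were lower in shco4 than in shco2 cells by 0.33 and 0.42 (0.00628 and 0.00106). The stress-induced pair HSPA1A and HSPA1B cannot be told apart on this array. The probe set 200799_at, which names both, read 1697, 1381 and 1836 in scramble, 2499, 2311 and 2660 in shco2 and 1586, 1153 and 1671 in shco4 cells. The shco2 arrays were the highest, and the scramble and shco4 arrays overlapped. Its difference with hairpin 2 was 0.61 (limma adjusted p = 0.0473). The other probe sets that name the pair, 202581_at and 200800_s_at (which also names HSPA1L), were at 0.58 and 0.88 with hairpin 2. They did not pass as fitted (0.157 and 0.0615), and 200800_s_at passed in the blocked fit (0.0101). In shco4 against shco2 cells 200799_at was lower by 0.78 (limma adjusted p = 0.0136), a call that held without each array. There 200800_s_at was lower by 0.91 (0.0402), until 1 of 6 arrays was left out (0.119 without shco2 replicate 1). The difference of -0.63 at 202581_at (0.101) passed only in the blocked fit (0.0325). HSPA6, a strictly stress-induced HSP70 whose promoter is printed above, was dim: 213418_at read 19.1, 45.5 and 34.4 in scramble, 57.7, 34.8 and 51.5 in shco2 and 14.6, 5.25 and 5.91 in shco4 cells. All 3 shco4 arrays lay under the floor of 16, so the fall from shco2 to shco4, at least 2.93-fold, is a bound, and it disappears when the floor is set at 64. At its other probe set, 117_at, it read 34.6, 36.1 and 10 in scramble, 28.3, 27.8 and 40.9 in shco2 and 35.6, 15.3 and 26.3 in shco4 cells. The lines overlapped, and the difference between the hairpin lines, -0.37, did not pass (limma adjusted p = 0.62). HSPA2, an HSP70 known from male germ cells, did not pass as fitted and was lower by 0.78 in shco4 than in shco2 cells in the blocked fit (0.0318).

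The HSP90 group held 12 probe sets, of which 6 rose and 1 fell with hairpin 2. None passed with hairpin 4 by limma, where 2 probe sets were higher and 1 lower at an unadjusted p under 0.05. In shco4 against shco2 cells 5 were lower and 1 higher. Calls thus made up 58.3%, 0% and 50% of the group, against 20.7%, 18.8% and 31% of all probe sets. Among all probe sets with a mean of at least 100 the shares were 34.6%, 30.9% and 50.3%. HSP90AA1, the stress-responsive HSP90, rose at 3 of its 4 probe sets with hairpin 2. The brightest, 214328_s_at, read 11612, 10524 and 11062 in scramble, 12778, 11868 and 11810 in shco2 and 12037, 12579 and 11891 in shco4 cells, a difference of 0.14 that did not pass with either hairpin (adjusted p = 0.101 and 0.0999 by limma). Between the hairpin lines it was 0.00, and after quantile normalization -0.23 (adjusted p = 0.00121). At 210211_s_at it read 7768, 8072 and 8493 in scramble, 10543, 9889 and 10591 in shco2 and 8727, 9723 and 8859 in shco4 cells. That rise of 0.35 ± 0.05 with hairpin 2 passed (limma adjusted p = 0.00612). The other 2 probe sets, 211968_s_at and 211969_at, rose by 0.32 and 0.23, in calls that 3 and 4 arrays could end (highest adjusted p 0.0568 without scramble replicate 1 and 0.0664 without shco2 replicate 3). At 210211_s_at shco4 cells were lower than shco2 cells by 0.18, which did not pass in the blocked fit (adjusted p = 0.0815).

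HSP90AB1, the constitutive HSP90, did not pass in any comparison as fitted. At 200064_at it read 10548, 10446 and 9665 in scramble, 10898, 9491 and 9867 in shco2 and 10310, 10888 and 10276 in shco4 cells. The difference with hairpin 2 was -0.02, with a 95% interval from -0.17 to 0.12, and with hairpin 4 it was 0.04 (-0.11 to 0.18). Between hairpin lines it was 0.06, and quantile normalization turned it to -0.16 (adjusted p = 0.0118). The second probe set, 214359_s_at, was at 0.14 and 0.00. STIP1, the adaptor from HSP70 to HSP90, read 1980, 1749 and 1516 in scramble, 2832, 2258 and 2687 in shco2 and 1278, 1443 and 1281 in shco4 cells at 213330_s_at. The 3 lines did not overlap. It rose by 0.57 ± 0.13 with hairpin 2 (limma adjusted p = 0.0213, or 0.0715 without shco2 replicate 3 and above 0.05 without each of 4 arrays), was at -0.38 with hairpin 4 (adjusted p = 0.0838) and was lower in shco4 than in shco2 cells by 0.95 (adjusted p = 0.00177). Its other probe set, 212009_s_at, was at 0.48 and did not pass with hairpin 2.

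TRiC is built from 8 different subunits, and most of their probe sets rose with hairpin 2. Of 11 probe sets for CCT genes, 7 rose and none fell by limma (8 and 0 at an unadjusted p under 0.05), with a median difference of 0.33. With hairpin 4 none rose and 1 fell (0 and 1 unadjusted), with a median of -0.10. In shco4 against shco2 cells 7 were lower and none higher (8 and 0 unadjusted), with a median of -0.41. The median over all probe sets was 0.00 in each comparison. Calls made up 63.6%, 9.09% and 63.6% of the CCT probe sets, against 20.7%, 18.8% and 31% of all probe sets. Among all probe sets with a mean of at least 100 the shares were 34.6%, 30.9% and 50.3%. CCT3 read 5305, 4945 and 4702 in scramble, 7387, 6387 and 6532 in shco2 and 5054, 5385 and 4784 in shco4 cells. The scramble and shco4 arrays overlapped and the shco2 arrays lay above both. It rose by 0.44 ± 0.08 with hairpin 2 (limma adjusted p = 0.00865) and was at 0.03 with hairpin 4.

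Other subunits gave smaller or larger steps of the same kind with hairpin 2: CCT7 rose by 0.38, CCT5 by 0.32, CCT2 by 0.31 at 201947_s_at and by 0.35 at 201946_s_at, and CCT6A by 0.39 at 201327_s_at and by 0.64 at 201326_at. CCT6A at 201327_s_at read 2922, 2752 and 2619 in scramble, 3785, 3324 and 3789 in shco2 and 2344, 2339 and 2242 in shco4 cells, with no overlap between lines. With hairpin 4 it fell by 0.26 (limma adjusted p = 0.0338), a call that 5 arrays could end (0.0951 without scramble replicate 1). The CCT5 call with hairpin 2 could be ended by 4 arrays (0.0808 without scramble replicate 3) and did not pass in the blocked fit (0.0635). The lower level of CCT5 in shco4 than in shco2 cells did not pass there either (0.0519). The call of CCT2 at 201946_s_at could be ended by 7 arrays (0.122 without shco2 replicate 1).

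The remaining subunits did not pass with hairpin 2 as fitted. CCT8 read 4308, 4722 and 4876 in scramble, 5247, 5141 and 5825 in shco2 and 4291, 4468 and 5017 in shco4 cells at 200873_s_at. Its difference of 0.22 with hairpin 2 (95% interval 0.03 to 0.41) had a limma adjusted p of 0.111, and 0.0177 in the blocked fit. The difference of -0.24 from shco2 to shco4 (0.071) also passed in the blocked fit (0.00996). CCT4, among the brightest of the probe sets, read 8071, 8040 and 7772 in scramble, 7929, 6997 and 7412 in shco2 and 6955, 7338 and 8032 in shco4 cells. It was at -0.10 with both hairpins (95% interval -0.25 to 0.06 with hairpin 2), and the difference from its partners was not tested. TCP1, the first subunit, was read by probe sets that also carry SNORA29: 208778_s_at was at 0.14 with hairpin 2, -0.14 with hairpin 4 and -0.29 between them, of which the last passed (limma adjusted p = 0.0205) but not in the blocked fit (0.0547). There 222011_s_at was lower by 0.40 in shco4 than in shco2 cells (0.0284). CCT6B, a testis form, was dim and did not pass.

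**Figure D3:**
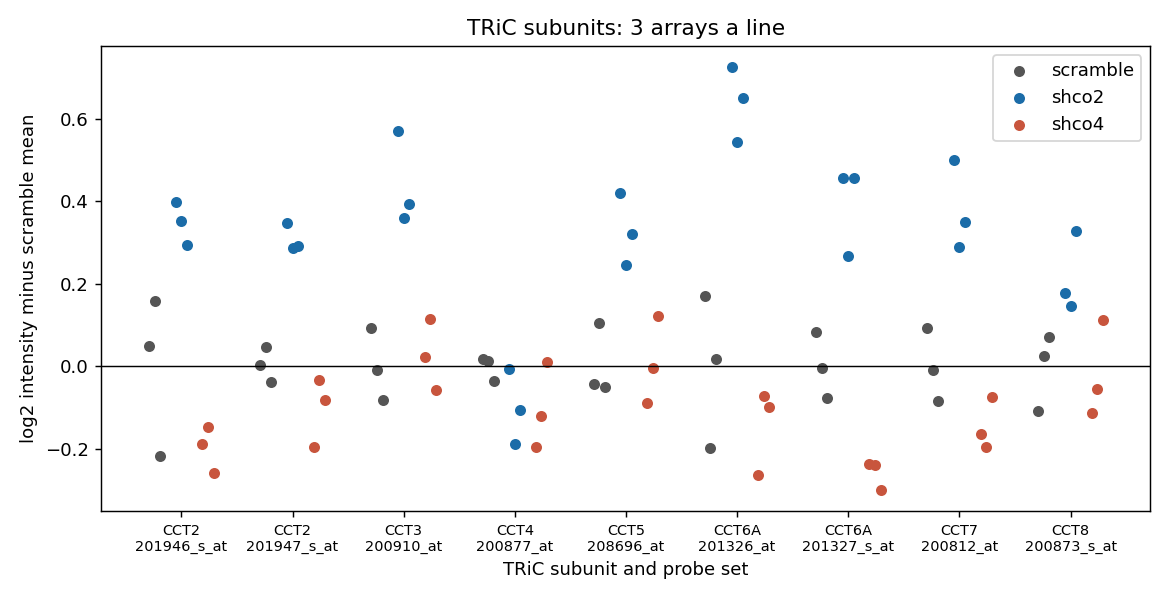
Log2 intensity of each array minus the scramble mean (vertical axis) for the brighter TRiC probe sets, with 3 points a line. The shco2 points of CCT2, CCT3, CCT5, CCT6A and CCT7 lie above the scramble points, and those of CCT4 do not.

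Against scramble, the barrel and the lid of the mitochondrial chaperonin were called in different lines. HSPE1, the lid, read 2855, 2366 and 2741 in scramble, 3771, 3687 and 4038 in shco2 and 2912, 2435 and 2850 in shco4 cells. It rose by 0.53 ± 0.10 with hairpin 2 (limma adjusted p = 0.0103) and was at 0.04 with hairpin 4. HSPD1, the barrel, read 6379, 5801 and 5584 in scramble, 6034, 4977 and 5118 in shco2 and 4347, 4309 and 4181 in shco4 cells at 200806_s_at. It was at -0.14 with hairpin 2 and fell by 0.47 ± 0.08 with hairpin 4 (limma adjusted p = 0.011). The brighter 200807_s_at fell by 0.34 with hairpin 4, which did not pass in the blocked fit (0.0686) or without each of 8 arrays (0.125 without scramble replicate 1). In shco4 against shco2 cells both genes were lower, HSPE1 by 0.49 (limma adjusted p = 0.00891) and HSPD1 by 0.32 at 200806_s_at. That call of HSPD1 could be ended by 3 arrays (0.0736 without shco4 replicate 3). At 200807_s_at HSPD1 was at -0.17 between the hairpin lines, which did not pass (0.248). These genes lie head to head on the chromosome with a shared promoter region, and the difference between their responses was not tested.

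J proteins were the largest group and had no common direction. Of 48 probe sets 7 rose and 7 fell with hairpin 2, and 6 rose and 5 fell with hairpin 4. In shco4 against shco2 cells 3 were higher and 7 lower. Calls thus made up 29.2%, 22.9% and 20.8% of the group, against 20.7%, 18.8% and 31% of all probe sets. Among all probe sets with a mean of at least 100 the shares were 34.6%, 30.9% and 50.3%. DNAJB4, a cytosolic J protein that is heat inducible, rose at both probe sets with hairpin 2. At 203810_at it read 306, 308 and 353 in scramble, 661, 597 and 661 in shco2 and 568, 521 and 573 in shco4 cells. The scramble arrays lay below all others. It rose by 0.99 ± 0.07 with hairpin 2 (limma adjusted p = 0.000513) and by 0.78 ± 0.07 with hairpin 4 (adjusted p = 0.00131). The brighter 203811_s_at read 524, 486 and 381 in scramble, 929, 798 and 790 in shco2 and 740, 528 and 508 in shco4 cells. The shco2 arrays lay above all others. It rose by 0.86 ± 0.18 with hairpin 2 (adjusted p = 0.0185, or 0.0634 without shco2 replicate 1 and also above 0.05 without scramble replicate 3) and was at 0.34 with hairpin 4 (adjusted p = 0.271). In the blocked fit both were lower in shco4 than in shco2 cells (0.0285 and 0.0169).

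DNAJA1, a cytosolic partner of HSPA8, rose with hairpin 2 by 0.44 at 200881_s_at and by 0.35 at 200880_at. The first read 5287, 4760 and 4850 in scramble, 7385, 5966 and 6865 in shco2 and 5660, 4614 and 5236 in shco4 cells. Its call could be ended by 5 arrays (0.0902 without scramble replicate 2), whereas that of 200880_at held without any single array (limma adjusted p = 0.00466 over all). DNAJA2 rose by 0.37 with hairpin 2 and by 0.31 with hairpin 4, calls that 2 and 6 arrays could end (0.0519 and 0.1, both without scramble replicate 2; the former also without scramble replicate 3). DNAJB1, the best known heat-inducible J protein, read 1311, 1199 and 893 in scramble, 1891, 1463 and 1625 in shco2 and 1207, 1106 and 1265 in shco4 cells at 200664_s_at. The shco2 arrays were the highest, but the difference of 0.56 did not pass (limma adjusted p = 0.0553), nor did 0.28 at 200666_s_at (adjusted p = 0.245). DNAJB14, a J protein of the endoplasmic reticulum membrane, rose by 0.27 with hairpin 2, until 1 of 4 arrays was left out (0.0735 without scramble replicate 2).

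DNAJC16 fell with both hairpins at both of its brighter probe sets. At 212908_at it read 275, 249 and 280 in scramble, 153, 117 and 173 in shco2 and 173, 165 and 159 in shco4 cells. The scramble arrays lay above all others. It fell by 0.88 ± 0.14 with hairpin 2 (limma adjusted p = 0.00636) and by 0.70 ± 0.14 with hairpin 4 (adjusted p = 0.0166), the latter not without scramble replicate 1, scramble replicate 3 or shco4 replicate 3 (up to 0.0557). At 212911_at the falls were 0.71 and 0.67. DNAJC9, a J protein that also binds histones, read 2539, 2830 and 2591 in scramble, 1471, 1777 and 1780 in shco2 and 1772, 2263 and 2263 in shco4 cells at 213088_s_at. Both hairpin lines lay below scramble. The fall with hairpin 2 was 0.67 ± 0.12 (limma adjusted p = 0.0111), and the difference with hairpin 4, -0.35, passed in the blocked fit (0.0277 against 0.108 without), where DNAJC9 was also higher by 0.32 in shco4 than in shco2 cells (0.0221). Its second probe set, 213092_x_at, fell by 0.58 with hairpin 2, a call that 7 arrays could end (0.126 without shco2 replicate 1), and was at -0.43 with hairpin 4 (0.0345 in the blocked fit against 0.113 without).

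DNAJC15, a J protein of the mitochondrial inner membrane, read 1747, 1681 and 1575 in scramble, 1132, 1037 and 1049 in shco2 and 1378, 1513 and 1483 in shco4 cells. The 3 lines did not overlap. It fell by 0.64 ± 0.06 with hairpin 2 (limma adjusted p = 0.000948), was at -0.19 with hairpin 4 (adjusted p = 0.0598) and was higher in shco4 than in shco2 cells by 0.44. DNAJC13, an endosomal J protein, read 504, 407 and 560 in scramble, 246, 313 and 306 in shco2 and 658, 623 and 762 in shco4 cells. Again no line overlapped another. It fell by 0.76 ± 0.15 with hairpin 2 (limma adjusted p = 0.0154, or 0.053 without scramble replicate 1), was at 0.48 with hairpin 4 (adjusted p = 0.0782) and was higher in shco4 than in shco2 cells by 1.24 (adjusted p = 0.00137). DNAJB5 at 212817_at read 163, 153 and 173 in scramble, 80.6, 99.5 and 113 in shco2 and 117, 116 and 147 in shco4 cells. It fell by 0.75 ± 0.15 with hairpin 2 (limma adjusted p = 0.0145, or 0.052 without scramble replicate 3), and in the blocked fit it was higher by 0.38 in shco4 than in shco2 cells (0.0417).

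The J proteins with the largest falls under hairpin 4 were DNAJC22 and DNAJC6. DNAJC6, or auxilin, which uncoats clathrin vesicles, read 481, 518 and 441 in scramble, 533, 698 and 585 in shco2 and 171, 223 and 188 in shco4 cells at 204720_s_at. The shco4 arrays lay far below the others. It fell by 1.31 ± 0.14 with hairpin 4 (limma adjusted p = 0.00181) and was lower in shco4 than in shco2 cells by 1.64. DNAJC22 was dim, at 56.3, 51.9 and 76 in scramble, 55.8, 79.2 and 75 in shco2 and 16.2, 31.7 and 12.6 in shco4 cells, 1 of them under the floor. Its difference of -1.59 ± 0.31 (limma adjusted p = 0.0163) passed with the floor at 16, not with the floor at 64, and not without scramble replicate 3 or shco4 replicate 1 (0.0523 without the latter). DNAJC10, a disulfide reductase of the endoplasmic reticulum, read 491, 508 and 543 in scramble, 546, 484 and 476 in shco2 and 401, 352 and 326 in shco4 cells at 221781_s_at. It fell by 0.52 ± 0.09 with hairpin 4 (limma adjusted p = 0.0102).

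Smaller J protein calls were less firm. DNAJB12 rose with both hairpins at its dimmest probe set, 202865_at (52.6 to 60.1 in scramble, 68.8 to 72.5 in shco2 and 68.5 to 78.9 in shco4 cells), by 0.31 and 0.35. Its 3 brighter probe sets did not pass, and neither call held with the floor at 64. The call with hairpin 2 could be ended by 4 arrays (0.078 without shco2 replicate 2) and did not pass in the blocked fit (0.0608). With hairpin 4, DNAJB6 rose by 0.32, DNAJC2 by 0.48 and DNAJC1 by 0.27. The DNAJB6 and DNAJC2 calls could each be ended by 8 arrays (0.129 without scramble replicate 1 and 0.135 without scramble replicate 3), and DNAJC2 did not pass in the blocked fit (0.0957). DNAJC1 lost its call without scramble replicate 2 (0.0599) or shco4 replicate 2. Between the hairpin lines, DNAJB9 was higher by 0.52 in shco4 than in shco2 cells, and DNAJC17 lower by 0.80 until 1 of 8 arrays was left out (0.115 without shco4 replicate 3). Other J proteins passed in the blocked fit and not as fitted. With hairpin 4 these were DNAJC4 at 206782_s_at at 0.66 (0.0404), DNAJC7 at 215252_at at 0.51 (0.0141) and DNAJC8 at 205545_x_at at 0.42 (0.0178). Between the hairpin lines they were DNAJC4 at 206782_s_at at 0.69 (0.0239), DNAJC7 at 215252_at at 0.46 (0.011) and DNAJB2 at -0.51 (0.0279).

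Small heat shock proteins, which hold unfolded chains until HSP70 takes them over, gave the largest rise of the module. HSPB8, which works with BAG3 in selective autophagy, read 185, 211 and 230 in scramble, 548, 519 and 543 in shco2 and 156, 221 and 184 in shco4 cells. The shco2 arrays stood far above the others, which overlapped. It rose 2.58-fold with hairpin 2 (log2 difference 1.37 ± 0.14, limma adjusted p = 0.00134) and was at -0.17 with hairpin 4 (adjusted p = 0.484). HSPB1, or HSP27, an abundant small heat shock protein, read 5181, 3945 and 4543 in scramble, 4386, 3332 and 4242 in shco2 and 2455, 2416 and 2822 in shco4 cells. It was at -0.19 with hairpin 2 (adjusted p = 0.461) and fell by 0.82 ± 0.14 with hairpin 4 (limma adjusted p = 0.0104). HSPB1 was also lower in shco4 than in shco2 cells by 0.63, a call that 4 arrays could end (0.0573 without shco2 replicate 3). HSPB2 and HSPB3 were under the floor on all 9 arrays, and HSPB6 and HSPB7 were near it.

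BAG proteins, which release ADP from HSP70, had 10 probe sets. Of these 2 rose with hairpin 2, and 4 rose and 1 fell with hairpin 4. Calls thus made up 20% and 50% of the group, against 20.7% and 18.8% of all probe sets. Among all probe sets with a mean of at least 100 the shares were 34.6% and 30.9%. The rises with hairpin 4 were 1 probe set of BAG1 and every probe set of BAG6. BAG2, an inhibitor of the ubiquitin ligase CHIP, read 1900, 2008 and 1950 in scramble, 2892, 2699 and 3052 in shco2 and 1600, 1654 and 1643 in shco4 cells. No lines overlapped. It rose by 0.56 ± 0.05 with hairpin 2 (limma adjusted p = 0.000751) and fell by 0.26 ± 0.05 with hairpin 4 (adjusted p = 0.0113). BAG4 read 116, 95.8 and 109 in scramble, 134, 155 and 185 in shco2 and 85.5, 70.7 and 65.3 in shco4 cells. Its rise of 0.56 with hairpin 2 (limma adjusted p = 0.0444) could be ended by 7 arrays (0.129 without scramble replicate 2) and did not pass in the blocked fit (0.0877). BAG4 was at -0.54 with hairpin 4 (0.055), and it was lower in shco4 than in shco2 cells by 1.10 (0.00219).

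BAG6, a quality control factor for membrane proteins, rose with hairpin 4 at all 3 of its probe sets, by 0.26 to 0.35. At 213318_s_at it read 4170, 3885 and 4138 in scramble, 4201, 3556 and 3486 in shco2 and 5126, 5233 and 5210 in shco4 cells. The shco4 arrays stood above the others, and the limma adjusted p was 0.0185 (0.0638 without scramble replicate 2, with 2 to 4 arrays able to end the call at each probe set). BAG1 rose by 0.39 with hairpin 4 at 202387_at and was at 0.31, which did not pass, at 211475_s_at. The former call could be ended by 4 arrays (0.0713 without scramble replicate 2). BAG3, the stress-induced BAG, read 1646, 1839 and 2088 in scramble, 1949, 1985 and 2376 in shco2 and 2083, 2156 and 2686 in shco4 cells. Its differences of 0.18 and 0.31 did not pass (limma adjusted p = 0.486 and 0.189), nor did 0.13 between the hairpin lines (0.58). In the blocked fit all 3 passed (0.0245, 0.00736 and 0.0442).

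HSF1 itself, the regulator of the response, read 555, 430 and 498 in scramble, 768, 622 and 723 in shco2 and 628, 650 and 647 in shco4 cells at 202344_at. Both hairpin lines lay above scramble. It rose by 0.51 ± 0.11 with hairpin 2 (limma adjusted p = 0.0198), but not without scramble replicate 3, shco2 replicate 1 or shco2 replicate 3 (0.0668 without the last). With hairpin 4 its difference of 0.38 had an adjusted p of 0.0572, and 0.0433 in the blocked fit. The dimmer 213756_s_at did not pass as fitted, and with hairpin 2 it passed in the blocked fit (0.0438).

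**Figure D4:**
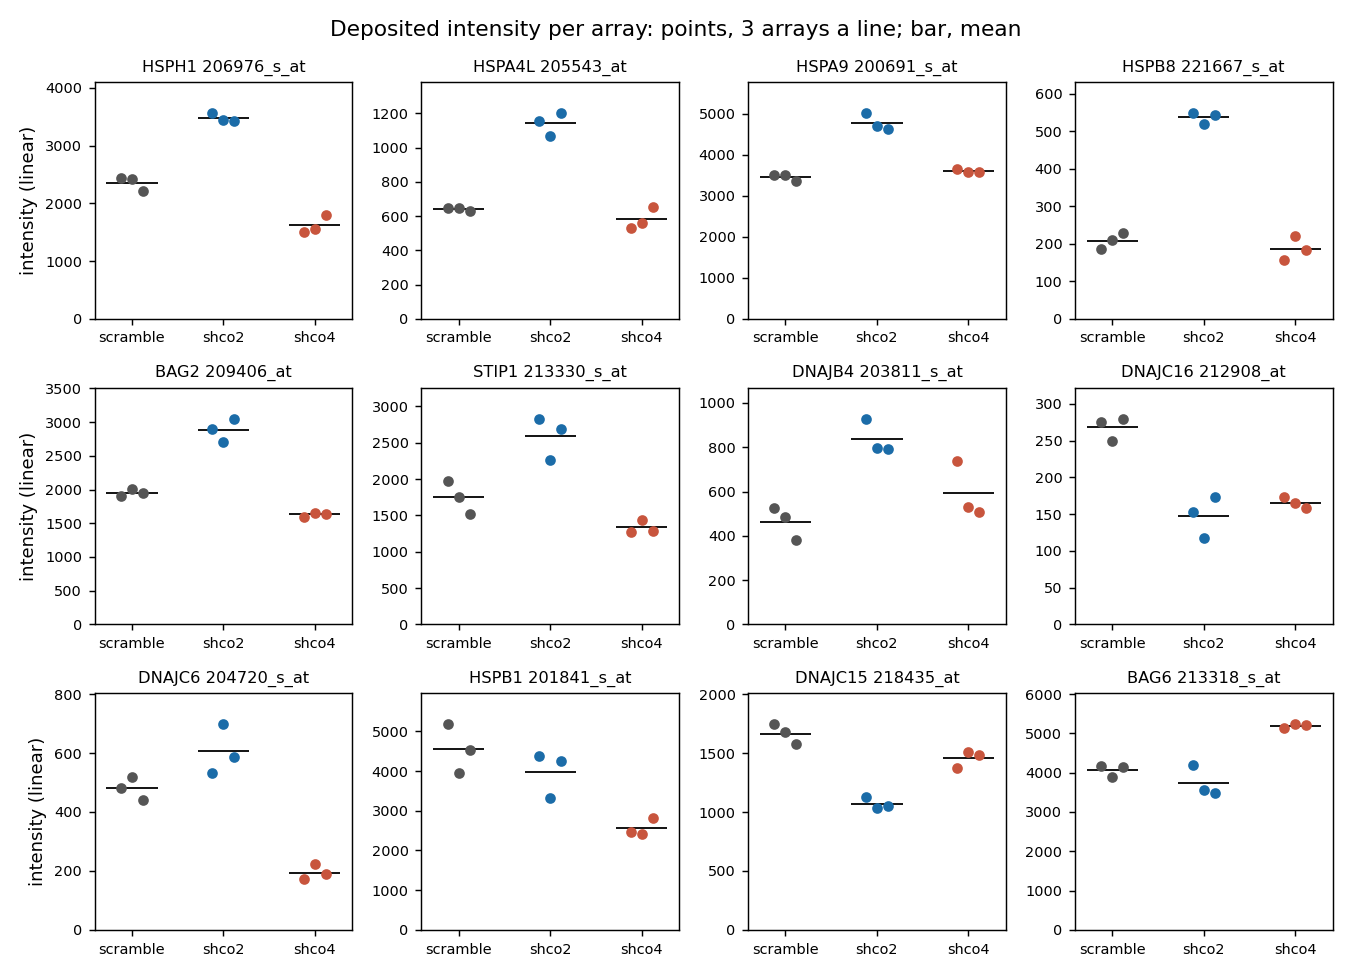
Deposited intensity (vertical axis, linear) of 12 probe sets of the module in the 9 arrays, with the mean of each line as a bar. HSPH1 and BAG2 lie above scramble in shco2 cells and below it in shco4 cells, and HSPB8, HSPA4L and HSPA9 stand above the other lines in shco2 cells.

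Of the 66 genes, 30 had more than 1 probe set, and the difference between probe sets of a gene was tested itself on the same arrays. With hairpin 2 the probe sets of HSPA4 and CACYBP differed, 2 of 30 genes against a background of 7.7% of 4310 genes. HSPA4, a cytosolic HSP110, read 596, 616 and 589 in scramble, 227, 286 and 234 in shco2 and 743, 767 and 701 in shco4 cells at 208814_at. At 208815_x_at it read 1690, 1585 and 1566, then 2208, 2045 and 2111, then 1858, 1696 and 1835 in the same lines. The first fell by 1.28 ± 0.09 with hairpin 2 and the second rose by 0.39 ± 0.05, a difference between them of -1.67 ± 0.13 (limma adjusted p = 0.00316). Of the others, 211015_s_at rose by 0.50 and 211016_x_at was at 0.34, which passed in the blocked fit (0.0413) and not as fitted. With hairpin 4 the same probe sets were at 0.30, 0.15, 0.20 and 0.05; only 211015_s_at passed (0.0318), and not in the blocked fit (0.0553), while in it 208814_at and 208815_x_at did (0.0423 and 0.0215). Between the hairpin lines 211016_x_at was at -0.30 and passed in the blocked fit (0.0468).

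CACYBP, which binds calcyclin and the ubiquitin ligase machinery and resembles HSP90 cofactors, showed the same kind of split. At 211761_s_at it read 1995, 2462 and 2241 in scramble, 943, 1054 and 1201 in shco2 and 1913, 2250 and 2460 in shco4 cells. The brighter 201381_x_at read 3420, 3264 and 2852, then 4535, 4152 and 4208, then 2929, 3021 and 2975. With hairpin 2 the first fell by 1.07 ± 0.13 and the second rose by 0.44 ± 0.07, a difference of -1.51 ± 0.17 (limma adjusted p = 0.00546). The third, 210691_s_at, rose by 0.61, and the dim 201382_at was at -0.85 and did not pass. With hairpin 4 none of the 4 passed, with differences between -0.48 and -0.02. A direction for HSPA4 or CACYBP with hairpin 2 therefore depends on the probe set, and which transcripts each reads was not tested.

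**Figure D5:**
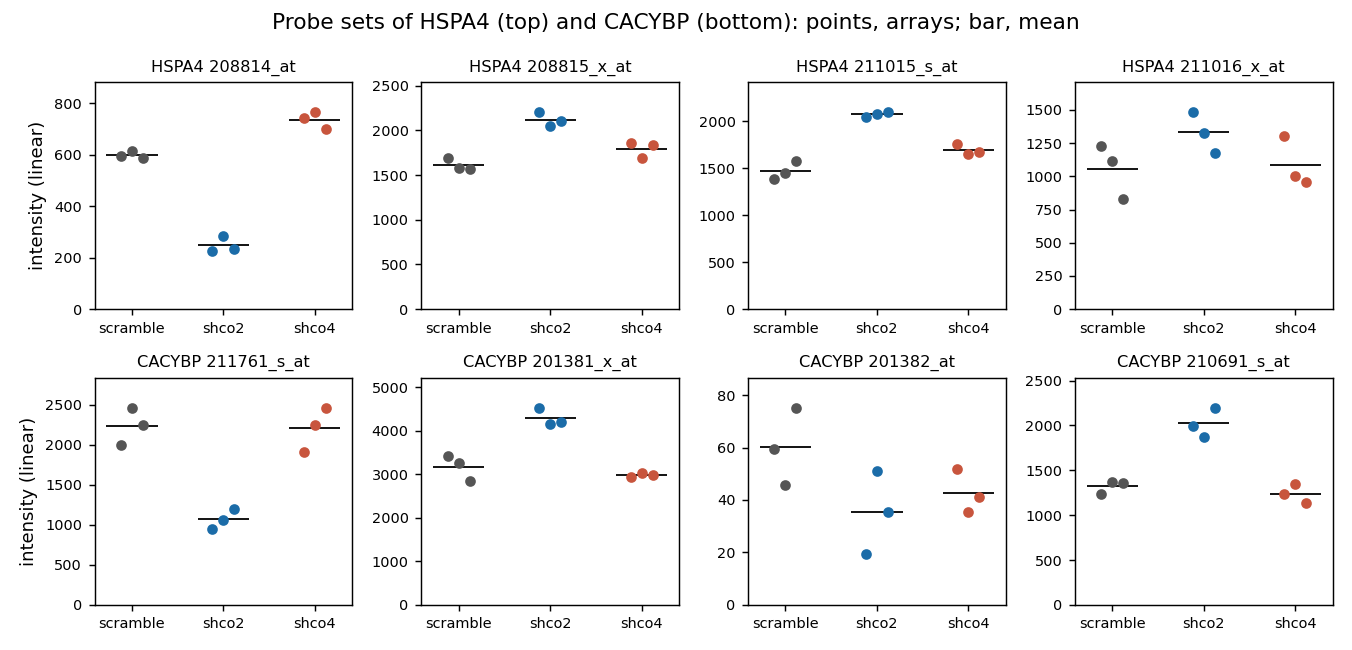
Deposited intensity (vertical axis, linear) on the 9 arrays for the 4 probe sets of HSPA4 and the 4 of CACYBP, with the mean of each line as a bar. In shco2 cells HSPA4 208814_at and CACYBP 211761_s_at lie below scramble, while HSPA4 208815_x_at and 211015_s_at and CACYBP 201381_x_at and 210691_s_at lie above it.

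With hairpin 4 the gene with differing probe sets was DNAJC6, 1 of 30 against 4.29% of all genes, but its second probe set, 204721_s_at, was under the floor on all 9 arrays and gave no reading of its own. Between the hairpin lines HSPA4, CACYBP and DNAJC6 differed, 3 of 30 against 13.9%. A weaker form of disagreement, a call at some probe sets and not at others, was met with hairpin 2 in 9 genes: CACYBP, DNAJB12, DNAJB5, DNAJC16, HSF1, HSP90AA1, HSPA4, HSPA9 and STIP1. Every probe set rose in CCT2, CCT6A, DNAJA1, DNAJB4 and HSPH1, and every probe set fell in DNAJC9. With hairpin 4 the 9 genes called at some probe sets only were BAG1, CCT6A, DNAJB12, DNAJB4, DNAJC10, DNAJC16, DNAJC6, HSPA4 and HSPH1, and BAG6 and HSPD1 were called at all of theirs. The share of all genes called at some or at every probe set is not given here. These counts therefore list the members and cannot show whether they are many or few.

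Genes of the same pathway outside the module were counted with 1 probe set a gene, against all genes counted in the same way. The background called was 24.3% with hairpin 2 (13.3% rose, 11% fell), 22.2% with hairpin 4 (10.7% rose, 11.5% fell) and 35.4% between the hairpin lines (16% higher and 19.3% lower in shco4). Of 13 further cochaperones measured, 5 rose and 1 fell with hairpin 2, and 1 rose and 1 fell with hairpin 4. CHORDC1, an HSP90 cochaperone, read 700, 715 and 934 in scramble, 1474, 1579 and 1950 in shco2 and 789, 869 and 1023 in shco4 cells and rose by 1.09 with hairpin 2 (limma adjusted p = 0.00557). With hairpin 4 it was at 0.20, which passed in the blocked fit (0.0172) and not as fitted. FKBP4, the HSP90 immunophilin of steroid receptors, rose by 0.63 with hairpin 2 and fell by 0.59 with hairpin 4, the latter not without scramble replicate 1, scramble replicate 2 or shco4 replicate 1 (0.06 at most). TTC4 rose by 0.67 with hairpin 2, PPID by 0.76 and ST13 by 0.31, and 7 and 6 arrays could end the calls of PPID (0.132 without shco2 replicate 3) and ST13 (0.12 without scramble replicate 3). HSPBP1, an HSP70 exchange factor, fell by 1.11 with hairpin 2. STUB1, the ligase CHIP, rose by 0.54 with hairpin 4. PPID and PPP5C, at -0.61 and -0.49 with hairpin 4, did not pass as fitted and passed in the blocked fit (0.0337 and 0.0241), as did TTC4 at 0.27 (0.0422).

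Prefoldin hands actin and tubulin chains to TRiC. Of 7 prefoldin subunits and TRiC cofactors measured, 3 rose with each hairpin and none fell by limma (at an unadjusted p under 0.05, 4 rose and 0 fell with hairpin 2, and 3 rose and 1 fell with hairpin 4). With hairpin 2 these were PFDN2 (0.62), PFDN4 (0.65) and VBP1 (0.53, adjusted p = 0.0504 without shco2 replicate 3 by limma). With hairpin 4 they were PFDN1 (0.77), PFDN5 (0.58) and PFDN2 (0.31, a call that 5 arrays could end, 0.0741 without scramble replicate 3). PFDN4 was at -0.29 with hairpin 4, which passed in the blocked fit (0.00866) and not as fitted.

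Of 8 mitochondrial chaperones and proteases, 5 rose and none fell with hairpin 2 by limma (7 and 0 at an unadjusted p under 0.05), and 1 rose and 1 fell with hairpin 4. CLPP, a matrix protease, rose by 0.95 and GRPEL1, the exchange factor of HSPA9, by 0.73 with hairpin 2. CLPX, AFG3L2 and HTRA2 rose by 0.63, 0.60 and 0.51 in less firm calls. That of CLPX could be ended by 4 arrays (0.0711 without scramble replicate 2) and that of AFG3L2 by 6 (0.104 without shco2 replicate 1). HTRA2 lost its call without shco2 replicate 3 (0.0791), scramble replicate 2 or shco2 replicate 1. With hairpin 4 GRPEL1 rose by 0.44 and HTRA2 fell by 0.50 (0.0857 without scramble replicate 2, 5 arrays able to end the call).

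Other heat shock and stress genes outside the module, 7 of them measured, gave 2 rises and 1 fall with hairpin 2 and 2 rises with hairpin 4. The chaperones among them, CRYAB (near the floor) and SERPINH1, did not pass with either hairpin. ATF3 rose by 0.72 and RGS2 by 1.21 with hairpin 2, and 7 and 3 arrays could end these calls (0.112 without shco2 replicate 1 and 0.0797 without shco2 replicate 2, for RGS2 each of the shco2 arrays). HMOX1, a marker of the oxidative stress response, fell by 1.21 with hairpin 2. SQSTM1, the autophagy receptor p62, rose by 1.02 with hairpin 4, and UBB by 0.13, until 1 of 7 arrays was left out (0.111 without shco4 replicate 1).

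Replication genes were counted for comparison. Of 18 genes of the G1/S transition and DNA replication, 3 rose with hairpin 2 (median 0.40) and 14 fell with hairpin 4 (median -1.22). All 18 were lower in shco4 than in shco2 cells (median -1.51). Calls thus made up 16.7%, 77.8% and 100% of them, against 24.3%, 22.2% and 35.4% of all genes. The medians of the 66 member genes, 1 probe set each, were 0.28, 0.00 and -0.15. Their part in the chaperone results was not tested.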

How the data were processed

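RNA of 9 samples (3 lines, 3 arrays each) was hybridised to Affymetrix 3' expression arrays, per the labels. The values are linear intensities, 1 per probe set and array, as deposited by the authors. The summary method is not given in the sources used here. Every array had the same mean, 500.1, after its bottom and top 2% of values were removed, which is how a scaling to 1 target looks. The number of arrays limits the precision.

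Values under 16 were set to 16, log2 was taken, 62 control probe sets were left out, and limma 3.58.1 (R 4.3.3) was fitted to all 9 arrays with 1 mean per line (lmFit, eBayes, two-sided, Benjamini-Hochberg over 22215 probe sets). Gene symbols came from GEO's platform annotation: 19064 probe sets had 1 symbol, 1043 several and 2108 none. Probe sets of 1 gene were compared by the same test on their difference per array. Promoter sequences are RefSeq's, and windows on 1 chromosome were not used here.

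Genes called in at least 1 comparison are named by role. Values per array are given for those that changed by at least 0.5 on the log2 scale without overlap of the lines (at most 10 per comparison), for genes with differing probe sets and for fixed regulators, HSP90 genes and chaperonin subunits. Other values per array were added after they were seen. The members and lists were chosen with earlier results of these data known.

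Replicate numbers came from the labels, which do not say what a number marks. Deviations from the line means correlated at 0.215 to 0.34 between scramble and shco4 and at 0.106 to 0.301 between shco2 and shco4. The numbers were taken as pairs there, where every correlation was over 0.1. The blocked fit is given where it changes the call of a member. Counts and p-values not marked as blocked come from fits without the block. Between scramble and shco2 the range was 0.0958 to 0.412. The decision was narrow, since only the lowest of these lay under 0.1. The block therefore stands with the alternatives for hairpin 2, although same-numbered arrays deviated most alike in 18 of 18 cases over all lines. Arrays paired by number in the other comparisons are paired by it in this one as well. The split between comparisons is thus a choice and not a finding. The fit was tested on simulated data for hairpin 2 against scramble, with 200 of 22215 probe sets changed. It called 11.9% of 67 changes of 0.5, 53.7% of 67 changes of 1 and 87.9% of 66 changes of 2 (log2). There were 11 false calls among 22015 unchanged probe sets. In the real comparison 4589 probe sets (20.7%) passed, and the Benjamini-Hochberg threshold depends on how many change. The simulated rates therefore do not give the share of changes found in these data.

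Alternatives were quantile normalization, median centring, floors of 64 and 1, a filter at a mean of 100, eBayes with trend and robust settings, a fit of the 2 lines compared, the block, and leaving out each array.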

Additional observations from a re-analysis of the deposited data

Results flagged for a closer look

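HSPH1, BAG2 and CCT6A were picked out because 1 probe set of each was called in opposite directions with the hairpins. In shco4 minus shco2 cells HSPH1 at 206976_s_at was at -1.11, BAG2 at -0.82 and CCT6A at 201327_s_at at -0.65. These values describe the choice and are no separate test, since a probe set called up in one line and down in the other has to differ between them. Both hairpins are set against the same scramble arrays, so opposite calls share that source. The fall of CCT6A with hairpin 4 could be ended by leaving out 5 of the 9 arrays, whereas the calls of BAG2 with both hairpins held without each array.

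Probe sets with several symbols lie outside the 109, and signals above the scramble level were met in them. HSPA1B and HSPA1A at 200799_at rose by 0.61 with hairpin 2 (limma adjusted p = 0.0473), higher on 3 of 3 arrays, and 8 of the 9 arrays could end the call (0.135 without shco2 replicate 3). The other probe sets of the pair, 202581_at and 200800_s_at, did not pass as fitted (0.157 and 0.0615), and the latter passed in the blocked fit (0.0101). TMEM135 and DNAJB6 at 208811_s_at rose by 0.43 with hairpin 2 (limma adjusted p = 0.00655), at 1979, 1869 and 2010 in scramble, 2507, 2587 and 2805 in shco2 and 2115, 2376 and 2455 in shco4 cells.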

How the results depend on the processing

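Of 157 calls of single genes followed, 101 held with each array left out and 102 under each other alternative. Quantile normalization reversed 3 differences: HSP90AA1 at 214328_s_at to -0.23 (adjusted p = 0.00121) and HSP90AB1 at 200064_at to -0.16 (0.0118) between the hairpin lines, both called after it and not as fitted, and UBB with hairpin 4 to -0.01. The count of members that rose with hairpin 4, 11 in all, was 1 with the floor at 1 and 6 when only the 2 lines were fitted. Genes with differing probe sets under hairpin 4, 1 in all, were 2 with the floor at 64 and 0 with the floor at 1 or the filter at 100, since DNAJC6 rests on the floor. With the replicate block 13 members instead of 8 were higher in shco4 than in shco2 cells, while 34.1% of all probe sets passed instead of 31%. With hairpin 2, where the numbers were not taken as pairs, the block gave 37 rises and 9 falls against 33 and 9. Of all probe sets, 24.1% passed with it against 20.7%. The block ended the calls of CCT5 (0.0635), HSPA14 (0.0531), BAG4 (0.0877) and DNAJB12 (0.0608) and added 8, of BAG3, CCT8 (0.0177), DNAJC6, DNAJC7, DNAJC8, DNAJC17, HSF1 at 213756_s_at and HSPA4 at 211016_x_at. Setting each of the 9 arrays against each other line, the array that deviated most alike had the same number in 18 of 18 cases.

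With 1 array left out, rises numbered 22 to 34 with hairpin 2, 2 to 10 with hairpin 4 and 8 to 11 between the hairpin lines, and falls 7 to 10, 9 to 12 and 28 to 35. The lowest counts of rises came without shco2 replicate 3 (22) and without scramble replicate 2 (2). No alternative moved the median of all probe sets by more than 0.047 on the log2 scale. Dim probe sets near the floor limit what the arrays can show.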
